A study of Schizosaccharomyces pombe with 6 samples.

Results

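The respiratory genes described here are the 49 genes of the fission yeast *Schizosaccharomyces pombe* nucleus whose annotated product names complex III (ubiquinol-cytochrome c reductase, including cytochrome c1), complex IV (cytochrome c oxidase) or the F1-FO ATP synthase. They were chosen by the words of the product text alone, from 5126 protein-coding genes among 6986 annotated IDs. The rule uses no measured value, but the group was set up with earlier results of these data known. A further 6 genes matched the words but lie on mitochondrial DNA and were left out. The 49 fall into 8 complex III subunits, 8 complex IV subunits, 14 ATP synthase subunits and 19 factors that assemble, translate or supply cofactors to these complexes. Poly(A)+ RNA was sequenced from 3 cultures of wild-type cells (strain AGP73, h+) and 3 of *spx1*Δ cells (strain BS53, h+ with *spx1*Δ::kanMX), all harvested in log phase during vegetative growth in YES, a rich medium, at 30°C. *spx1* encodes a protein with an SPX domain, a module that binds inositol pyrophosphates, and the study compared the transcriptomes with and without it. Each genotype is a single strain, so any other difference between the strains cannot be told apart from the deletion. A p-value here sets the difference between the strains against the spread among replicate cultures of a strain only.

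Complex III takes electrons from ubiquinol and passes them to cytochrome c, and complex IV passes them on from cytochrome c to oxygen. Both pump protons across the inner mitochondrial membrane, and the ATP synthase lets the protons return through its membrane FO part while its F1 head makes ATP. Fission yeast has no proton-pumping complex I and feeds electrons into ubiquinone through simpler dehydrogenases. Most of the subunits are made in the cytosol from nuclear genes and imported, whereas the core membrane subunits such as Cox1, cytochrome b and Atp9 come from mitochondrial DNA. Cells growing on glucose ferment much of it, so respiratory genes are of interest where carbon use changes.

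The counts summed to 11539278 to 15282140 per wild-type library and to 20929960 to 24696086 per *spx1*Δ library, so depth goes with strain. Reads of the deleted gene *spx1* (SPAC6B12.07c) were lower in all 3 *spx1*Δ libraries, at normalized counts of 2163, 2185 and 2062 against 5436, 5290.4 and 5153, a log2 fold change of -1.31 (SE 0.05, adjusted p = 1.07e-04). The annotated gene is longer than the deleted reading frame, and counts per gene do not show where the remaining reads lie. Normalized counts are the raw counts brought to a common library size with TMM factors. Among the *spx1*Δ libraries, replicate 1 stood apart: its level lay closest of the 3 to the wild-type mean for 74.7% of all protein-coding genes tested and for 39 of the 47 respiratory genes tested (83.0%). Results are therefore also given without it. In RNA from whole cultures, fewer cells that express a gene and less of its RNA per cell cannot be told apart. The 36 IDs of mitochondrial DNA had 0 counts in every library, so the mitochondrial subunits of these complexes are not analysed here.

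In wild-type cells most of the assembly factors lay far below the subunit genes. Levels between genes are given as CPM (counts scaled to the library size after TMM scaling) per kilobase of coding length, the mean ± SD of 3 libraries. The reads were counted over whole exons, untranslated parts included, so the level of a gene with long untranslated parts is raised on this scale, and levels per kilobase of exon length, a scale chosen after seeing the data, are given where they change the order. The 8 complex III subunits ranged from 286 to 787 per kilobase of coding length (median 673), the 8 complex IV subunits from 229 to 589 (median 417) and the 14 ATP synthase subunits from 269 to 1341 (median 386). The highest member level in these complexes was 2.75, 2.57 and 4.99 times the lowest. The spread depended on the length used. Per exon length the ratios were 2.05, 1.80 and 8.77, and for normalized counts without a length they were 5.60, 6.05 and 43.0.

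*atp2*, the beta subunit of the F1 ring that carries the catalytic sites, had the highest level of the ATP synthase on both scales, 1341 ± 8.76 per kilobase of coding length and 1117 ± 7.29 per kilobase of exon length, and the membrane subunit *atp18* the lowest, 269 ± 11.8 and 127 ± 5.60. *atp1*, the alpha subunit that alternates with *atp2* in the ring, came next to it per coding length at 692 ± 17.2, but per exon length it had 233 ± 5.78, below *atp4*, *atp3*, *tim11*, *atp20* and *atp5*. Among the complex III members the small subunit *qcr7* was highest per coding length at 787 ± 13.9, close to *qcr8* at 762 ± 66.9. *qcr1*, a core protein whose product text lacks the words used here, was higher still at 841 ± 45.6. Per exon length *cyt1* was the highest member at 475 ± 7.67 and *qcr7*, at 309 ± 5.44, lay below *cyt1*, *qcr8*, *rip1* and *qcr6*. On that scale *qcr1* had 561 ± 30.4. The core protein *qcr2* was lowest on both scales, at 286 ± 6.52 per coding length. In complex IV *cox9* was highest per coding length at 589 ± 42.8, within the SD of *cox13* at 580.5 ± 13.5. Per exon length *cox13* was highest at 329 ± 7.64, and *cox9*, at 213 ± 15.5, lay below 5 of the other 7 subunits. *cox8* was lowest on both scales, at 229 ± 19.6 per coding length.

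The 17 assembly factors with counts had a median level of 102 CPM per kilobase of coding length. At the top was *rcf2*, a factor of the complex III-IV supercomplex, at 625 ± 22.8, a level among those of the subunits, and the next was *cox14*, a complex IV assembly factor, at 284 ± 11.7. Per exon length the order differed. *coa2*, a complex IV factor whose annotated exon is all coding, was then highest at 176 ± 6.70, followed by *rcf2* at 158 ± 5.76 and *cyt2* at 97.2 ± 1.97, with *cox14* at 36.3 ± 1.5. At the bottom on both scales lay *cox1101* and *cox1102*, both annotated as a fusion of the copper chaperone Cox11 with the mitoribosome-associated protein Rsm22, with *cox1101* at 3.14 ± 0.232 per coding length and *cox1102* within that SD of it. These genes have coding sequences of the same length, 2262 bases, and how the counting treated reads that map to both is not given in the sources used, so their separate values are uncertain. *coa3* and *ina17*, an assembly factor of complex IV and one of the ATP synthase stalk, had 0 counts in every library of both strains. These 2 were not tested, and a level is not inferred for them.

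**Figure D1:**
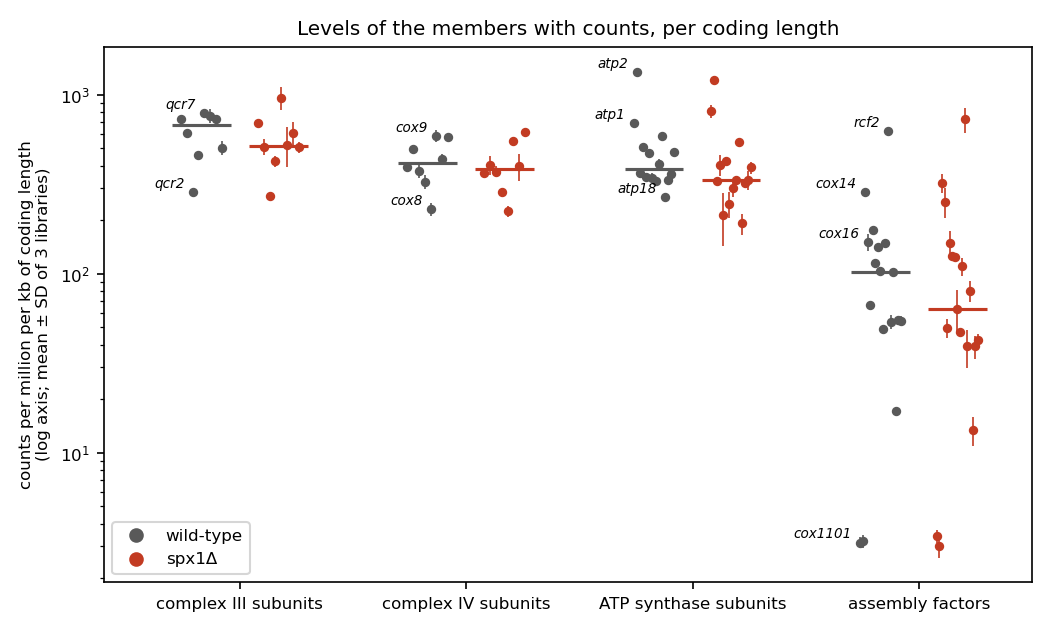
Level of each of the 47 respiratory genes with counts, in CPM per kilobase of coding length on a log axis, by class and strain. Points are means of 3 libraries, vertical lines the SD and horizontal bars the class median, and the subunits lie between 229 and 1341 in wild-type cells while the assembly factors reach down to 3.14.

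Without *spx1* the respiratory genes had small changes, and most of those that passed the test fell. At an adjusted p of at most 0.05 in edgeR's quasi-likelihood test over 6127 genes, 15 of the 47 genes tested were lower in *spx1*Δ cells, 2 were higher and 30 did not pass. The share lower was 31.9%, close to the 30.2% of all protein-coding genes tested, and a share so near that background is not a result about these genes. The share higher was 4.26%, against 21.2% of protein-coding genes. Over all 6127 genes, coding and noncoding, 25.4% were lower and 27.6% higher. At an unadjusted p under 0.05 the respiratory genes would number 19 lower (40.4%, against 36.2% of protein-coding genes) and 3 higher (6.38%, against 24.7%). DESeq2 called 18 members lower (38.3%, against 32.8% of protein-coding genes) and 3 higher (6.38%, against 22.4%), adding *atp2*, *atp3* and SPBC8D2.12c to those lower and *qcr7* to those higher. limma-voom called the same 15 lower and 2 higher members as edgeR, against 29.7% and 18.4% of protein-coding genes. With all 6 libraries no member reached a 2-fold change, a size reached by 2.81% of protein-coding genes in the lower and 4.17% in the higher direction among those called.

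The log2 fold changes of *spx1*Δ over wild type ran from -0.70 to 0.76, with a median of -0.14 against -0.08 for all protein-coding genes. Their SD across genes was 0.27, against 0.67 for protein-coding genes. The 95% confidence interval of the change lay wholly within 2-fold for 44 of the 47 genes (93.6%), against 81.4% of protein-coding genes, and the exceptions were *atp16*, *pet117* and *cox16*. The strains' ranges of normalized counts did not overlap for 24 members that were lower (51.1%, against 39.5% of protein-coding genes) and 5 that were higher (10.6%, against 26.0%). Reads of the 49 genes made up 0.9853%, 0.9743% and 1.009% of all counts in wild-type replicates 1 to 3. In *spx1*Δ replicates 1 to 3 they made up 0.9664%, 0.9741% and 0.9623%, each below every wild-type share, though replicate 2 of the 2 strains differed only in the last digit given.

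How many members passed the test depended on *spx1*Δ replicate 1. The median log2 difference of the 47 genes from their wild-type means was -0.09 in that library and -0.21 and -0.21 in replicates 2 and 3. Without replicate 1, 30 members were lower (63.8%, against 45.6% of protein-coding genes) and 6 higher (12.8%, against 30.2%). In that fit *atp16* was past 2-fold, at a log2 fold change of -1.01. Replicate 1 was singled out for lying nearest to the wild type, so larger changes without it are partly built into that fit. With each other library left out the count of lower members dropped, and so did the share of all protein-coding genes called. Without wild-type replicate 1, 1 member was lower and 1 higher, against 12.6% and 10.3% of protein-coding genes. Without wild-type replicate 2, 4 members were lower and 1 higher, against 14.8% and 11.6% of protein-coding genes. Without wild-type replicate 3, 1 member was lower and 1 higher, against 12.2% and 10.8% of protein-coding genes. Without *spx1*Δ replicate 2, 7 members were lower and 1 higher, against 20.9% and 16.0% of protein-coding genes. Without *spx1*Δ replicate 3, 1 member was lower and 1 higher, against 10.8% and 10.4% of protein-coding genes. The higher member in each of these 5 fits was *cox16*. Scaling on protein-coding genes alone gave 12 lower and 4 higher members, with a median of -0.07. It moved single genes up by similar amounts, as *cyt1* from -0.082 to -0.006, *atp2* from -0.144 to -0.068 and *cox16* from 0.761 to 0.842. The shares and median of all protein-coding genes under this scaling are not given here. These counts and this median can therefore not be set against the background of the main fit.

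**Figure D2:**
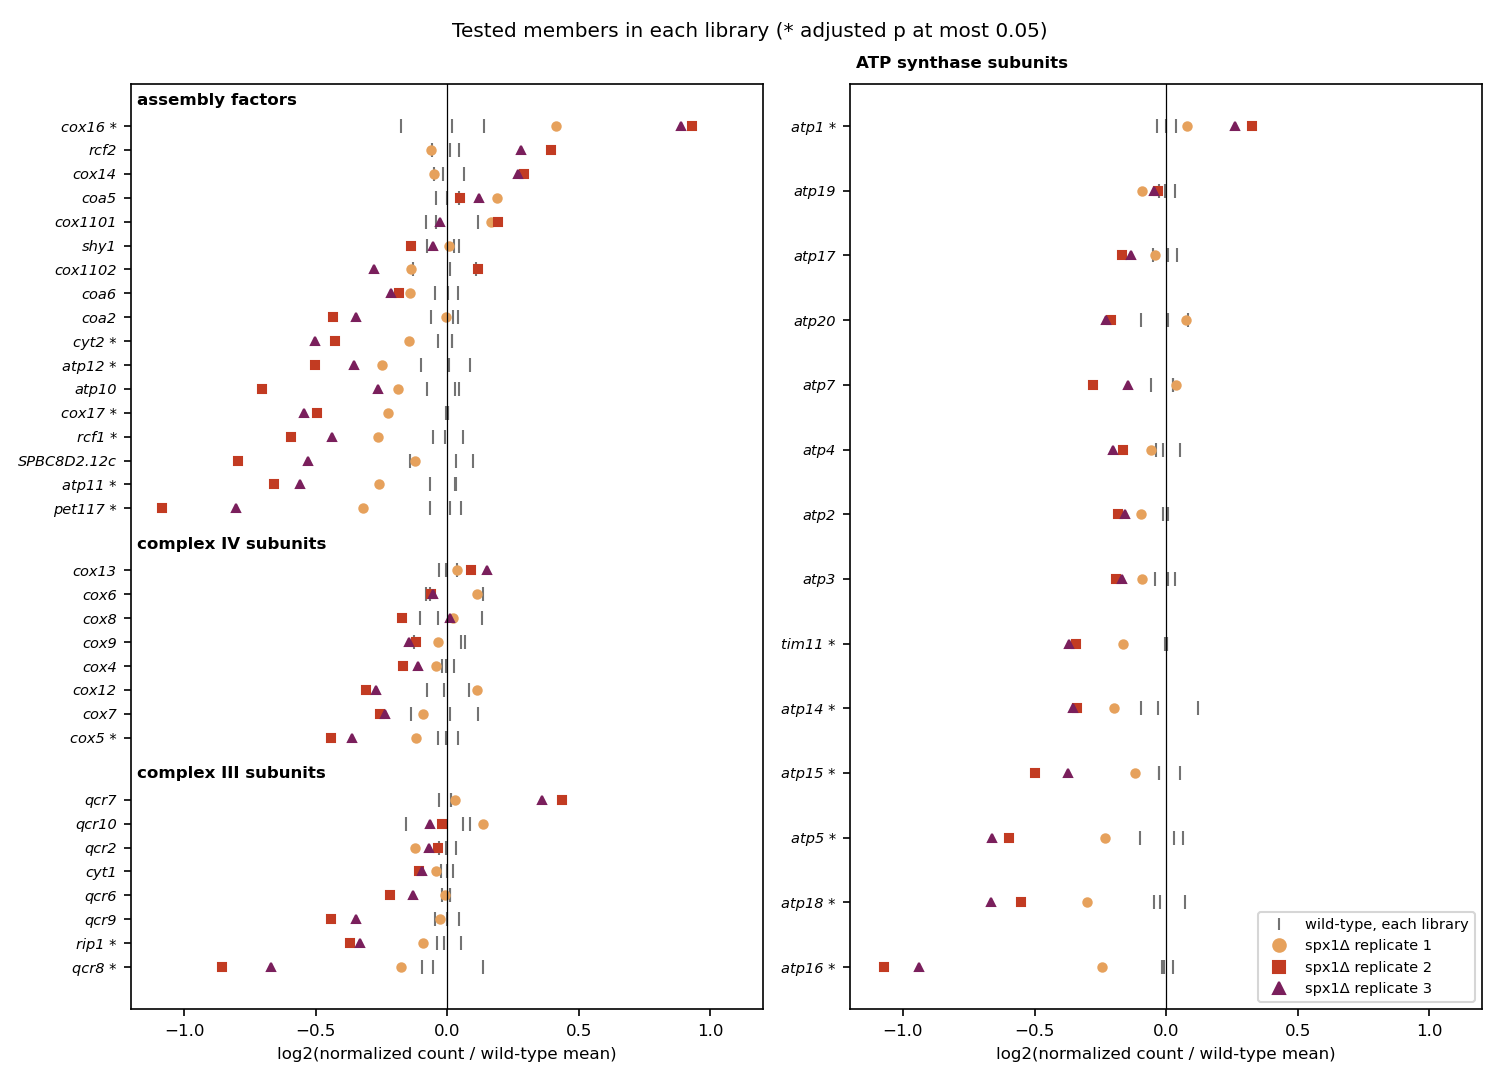
Normalized count of each tested respiratory gene in every library, as log2 of its ratio to the wild-type mean, by class. Grey ticks are the wild-type libraries, coloured symbols the *spx1*Δ libraries and asterisks mark an adjusted p of at most 0.05. The circles of *spx1*Δ replicate 1 lie closest of the 3 to 0 for 39 of 47 genes.

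Of the 8 complex III subunits, 2 fell, 0 rose and 6 did not pass, with a median log2 fold change of -0.10. The falls were of *qcr8*, a small subunit next to cytochrome b, and of *rip1*, the Rieske iron-sulfur protein that takes electrons from ubiquinol. *qcr8* had normalized counts of 3623, 4255 and 3726 in wild-type replicates 1 to 3 and 3423, 2139 and 2431 in *spx1*Δ replicates 1 to 3. All *spx1*Δ values lay below all wild-type values, with replicate 1 nearest to them, and the log2 fold change was -0.54 (SE 0.18, adjusted p = 0.0406). *rip1* had normalized counts of 7460.4, 7941 and 7593 in the wild-type and 7189.9, 5934 and 6084 in the *spx1*Δ libraries, again without overlap, and a log2 fold change of -0.26 (SE 0.09, adjusted p = 0.0401). *qcr7*, the highest member of the complex per coding length, pointed the other way. Its normalized counts were 5989.9, 5982 and 5805 in the wild-type and 6042, 8026 and 7595 in the *spx1*Δ libraries, with all *spx1*Δ values above the wild-type ones, but its log2 fold change of 0.28 (SE 0.11) missed the threshold (adjusted p = 0.061). *qcr10*, the small subunit associated with the Rieske protein, had a log2 fold change of 0.02 with a 95% interval of -0.20 to 0.23, from normalized counts of 2284, 1968 and 2329 in the wild-type and 2408, 2162 and 2094 in the *spx1*Δ libraries. The strains overlapped for *qcr10*.

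The other complex III subunits did not pass. *cyt1*, cytochrome c1, which hands electrons to cytochrome c, had a log2 fold change of -0.08 with a 95% interval of -0.20 to 0.04, and *qcr2*, the core protein, had -0.07 with an interval of -0.20 to 0.05. *qcr6*, the hinge protein, was at -0.12 (-0.27 to 0.04) and *qcr9* at -0.26 (-0.53 to 0.01). Neither call in complex III held with any library other than *spx1*Δ replicate 1 left out. Over the 6 fits without 1 library the adjusted p of *qcr8* ran from 1.20e-05 to 0.129 and that of *rip1* from 1.16e-04 to 0.139, and both passed only without *spx1*Δ replicate 1, a fit in which 4 subunits were lower and 1, *qcr7*, was higher. Scaled on protein-coding genes alone, complex III had 0 lower and 1 higher subunit, again *qcr7*, which DESeq2 also called higher (adjusted p = 0.0461).

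Complex IV had the narrowest range of changes of the 4 classes. Of its 8 nuclear subunits, 1 fell and 7 did not pass, and all log2 fold changes lay between -0.30 and 0.09 (median -0.10). The subunit that fell was *cox5*, whose budding yeast counterpart is made in different forms with and without oxygen. Its normalized counts were 5051, 5215 and 4945 in wild-type replicates 1 to 3 and 4672, 3729 and 3949.8 in *spx1*Δ replicates 1 to 3. The strains did not overlap, and the log2 fold change was -0.30 (SE 0.09, adjusted p = 0.0316). Without 1 library its adjusted p ran from 4.49e-05 to 0.112, and it passed only without *spx1*Δ replicate 1, when 4 subunits were lower and 1 was higher. That higher subunit was *cox13*, with normalized counts of 4059, 4250.3 and 4135 in the wild-type and 4251, 4413 and 4602 in the *spx1*Δ libraries and a log2 fold change over all libraries of 0.09 (SE 0.05, adjusted p = 0.176). The *spx1*Δ replicate 1 value of *cox13* exceeded the highest wild-type value by less than a count. *cox9*, the highest per coding length, had normalized counts of 1985, 1738 and 1967 in the wild-type and 1851, 1745 and 1716 in the *spx1*Δ libraries, which overlapped, and a log2 fold change of -0.10 with a 95% interval of -0.27 to 0.07.

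For the other complex IV subunits the intervals set limits on any change. *cox6* had a log2 fold change of 0.00 with a 95% interval of -0.20 to 0.20, and *cox8* had -0.04 with -0.27 to 0.19. *cox4*, whose product binds zinc in yeast, was at -0.11 (-0.24 to 0.02), *cox12* at -0.14 (-0.44 to 0.15) and *cox7* at -0.19 (-0.41 to 0.02). None of these intervals reached a 2-fold change in either direction.

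Of the ATP synthase's 14 subunits 6 fell, 1 rose and 7 did not pass, with a median log2 fold change of -0.15, and 13 of the 14 changes were negative. Among protein-coding genes 2882 of 4986 changes were negative and the median was -0.08. The share lower was 42.9% here, 25.0% in complex III, 12.5% in complex IV and 35.3% among the assembly factors, against 30.2% of protein-coding genes, and with so few genes in a class this is a count and no result about it. The share higher in the ATP synthase was 7.14%, against 21.2%. The largest fall was of *atp16*, the delta subunit of the rotating central stalk. Its normalized counts were 3142, 3124 and 3215 in wild-type replicates 1 to 3 and 2668, 1503 and 1648 in *spx1*Δ replicates 1 to 3. Replicates 2 and 3 lay at about the same low level and replicate 1 between them and the wild type, without overlap, and the log2 fold change was -0.70 (SE 0.21, adjusted p = 0.0314), which is 1.63-fold lower. *atp15*, the epsilon subunit of the same stalk, had normalized counts of 1843, 1846 and 1950.5 in the wild-type and 1730.1, 1331 and 1451 in the *spx1*Δ libraries and a log2 fold change of -0.32 (SE 0.10, adjusted p = 0.0379). *atp3*, the gamma subunit that forms the shaft of the stalk, missed the threshold at -0.15 (SE 0.05, adjusted p = 0.0524), although DESeq2 called it lower (adjusted p = 0.0309). For all 3 genes of the central stalk, every *spx1*Δ value lay below every wild-type value. That also held for 39.5% of protein-coding genes tested.

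In the peripheral stalk, which holds the F1 head still against the rotor, 2 of 4 subunits fell. Since 30.2% of protein-coding genes were called lower, counts this small in a part of the synthase are no result about it. *atp5*, the OSCP subunit at the top of the stalk, had normalized counts of 4253, 3799 and 4156 in wild-type replicates 1 to 3 and 3462, 2689 and 2575 in *spx1*Δ replicates 1 to 3. The strains did not overlap and the log2 fold change was -0.48 (SE 0.12, adjusted p = 0.0179). *atp14*, subunit H, had a log2 fold change of -0.29 (SE 0.08, adjusted p = 0.0218). The other stalk subunits *atp4* and *atp7* were at -0.14 (adjusted p = 0.0861) and -0.12 (adjusted p = 0.264) and did not pass. Among the small membrane subunits, 2 of 5 fell. *atp18*, subunit J, had normalized counts of 865, 939 and 879 in the wild-type and 727, 611 and 564 in the *spx1*Δ libraries, with no overlap, and a log2 fold change of -0.50 (SE 0.11, adjusted p = 0.0127). *tim11*, subunit E, which takes part in pairing the synthase into dimers, fell by 0.29 on the log2 scale (SE 0.07, adjusted p = 0.0155). *atp20*, subunit G and its partner in the dimer, was at -0.11 (adjusted p = 0.352), *atp17* at -0.11 (adjusted p = 0.131) and *atp19* at -0.06 (adjusted p = 0.432), and these did not pass.

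The F1 ring subunits *atp1* and *atp2* had changes of opposite sign. *atp1* had normalized counts of 19788, 20795 and 20269 in wild-type replicates 1 to 3 and 21444, 25445 and 24297 in *spx1*Δ replicates 1 to 3. All *spx1*Δ values exceeded the wild-type ones. The rise of 0.23 (SE 0.08, adjusted p = 0.0463) on the log2 scale was the only one called among the 30 subunit genes, of which 5 had a positive change. Among protein-coding genes 2104 of 4986 changes were positive. *atp2* had normalized counts of 38569.8, 38647 and 38179 in wild-type replicates 1 to 3 and 36044, 33846 and 34527 in *spx1*Δ replicates 1 to 3. All *spx1*Δ values lay below the wild-type ones, and the log2 fold change of -0.14 (SE 0.06, adjusted p = 0.0711) did not pass in edgeR but did in DESeq2 (adjusted p = 0.00628), which called 8 of the 14 subunits lower. The ratio of the pair was looked at after these values were seen, so it is given without a test. Per 100 *atp2* reads there were 51.3, 53.8 and 53.1 *atp1* reads in the wild-type libraries, a mean of 52.7 ± 1.29 (SD, n = 3). In *spx1*Δ replicates 1, 2 and 3 there were 59.5, 75.2 and 70.4, a mean of 68.3 ± 8.04 (SD, n = 3). This ratio does not depend on how the libraries are scaled. The annotated transcript of *atp1* is long, with 4795 exonic bases around a coding length of 1611, against 1894 and 1578 for *atp2*. Of the *atp1* exon bases 56.2% overlap *abp1* or *dpp1* on the opposite strand in the later annotation. Counts per gene do not show which stretch of *atp1* gained reads.

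Of the 7 ATP synthase calls, *atp18* was the firmest. With 1 library left out its adjusted p ran from 3.99e-05 to 0.0516, and it was lost only without wild-type replicate 2. *atp5* passed in 3 of the 6 such fits, *atp14* and *tim11* in 2 each, and *atp15*, *atp16* and *atp1* only in the fit without *spx1*Δ replicate 1. In that fit 12 of the 14 subunits were lower (85.7%, against 45.6% of protein-coding genes), 1 was higher and 1, *atp19*, did not pass. Without wild-type replicates 1, 2 and 3 the lower subunits numbered 1, 2 and 1, and without *spx1*Δ replicates 2 and 3 they numbered 3 and 1.

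**Figure D3:**
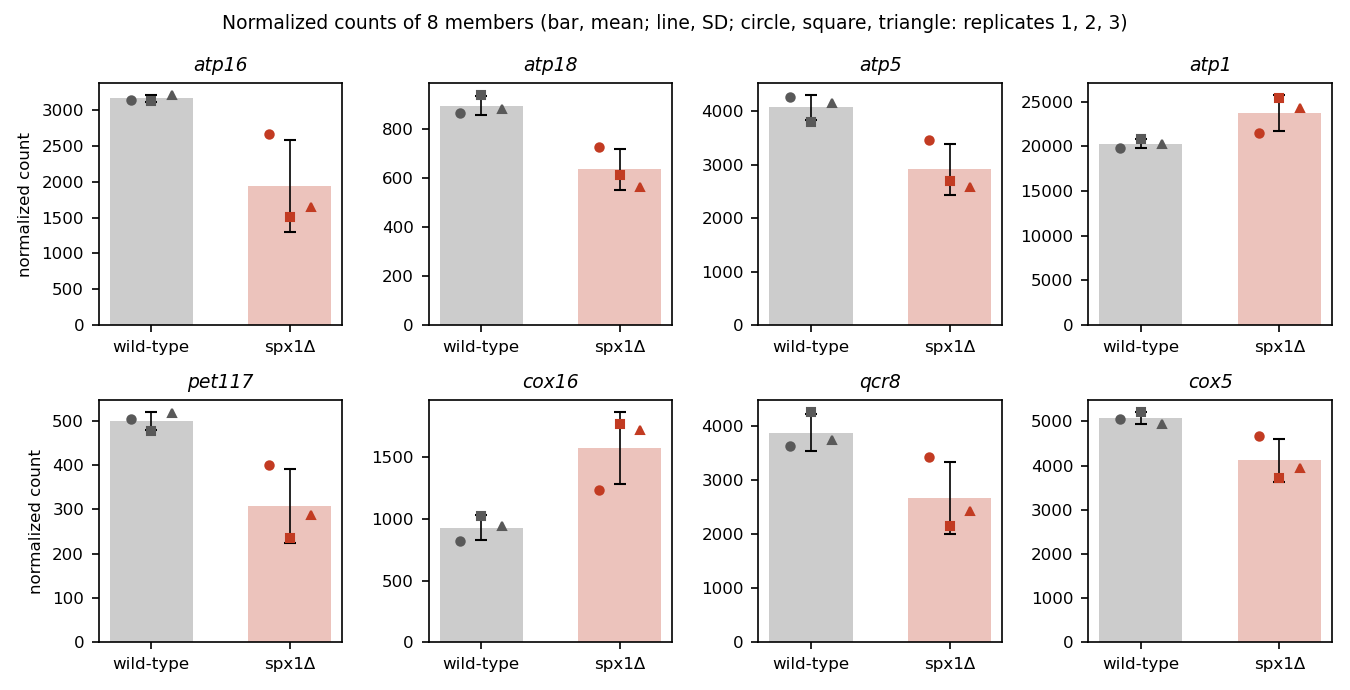
Normalized counts of 8 respiratory genes in each library, with bars for the mean of 3 libraries and lines for the SD, on axes that start at 0. Apart from *atp1* and *cox16*, every *spx1*Δ value lies below every wild-type value, and *spx1*Δ replicate 1 (circle) lies nearest to the wild type in all 8 panels.

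Of the 17 assembly factors tested, 6 fell, 1 rose and 10 did not pass, and the class had the lowest median log2 fold change, -0.25, and the widest range. The gene that rose was *cox16*, a complex IV assembly factor of the inner membrane. Its normalized counts were 822, 1022 and 939 in wild-type replicates 1 to 3 and 1234, 1765 and 1716 in *spx1*Δ replicates 1 to 3. All *spx1*Δ values exceeded the wild-type ones, and the log2 fold change was 0.76 (SE 0.16, adjusted p = 0.0103), which is 1.70-fold higher. It was the only member called in all 6 fits with 1 library left out (adjusted p 4.46e-06 to 0.0464). The annotated transcript of *cox16* is long for its product, with 2145 exonic bases around a coding length of 342, and counts per gene do not show which stretch gained reads. Of its exon bases 71.0% overlap SPNCRNA.3433, SPNCRNA.3434 or the *cox15* antisense RNA on the opposite strand in the later annotation. The largest fall was of *pet117*, another complex IV assembly factor, with normalized counts of 504, 478 and 518 in wild-type replicates 1 to 3 and 399.8, 236 and 287 in *spx1*Δ replicates 1 to 3. The strains did not overlap and the log2 fold change was -0.70 (SE 0.20, adjusted p = 0.025), which is 1.62-fold lower. *cox17*, the copper chaperone that supplies the metal centres of complex IV, fell by 0.41 (SE 0.13, adjusted p = 0.0363) on the log2 scale.

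Both chaperones of the F1 head fell. *atp11*, whose product binds the beta subunit before assembly in budding yeast, had normalized counts of 819, 877 and 879 in the wild-type and 717, 544 and 583 in the *spx1*Δ libraries and a log2 fold change of -0.48 (SE 0.12, adjusted p = 0.0167). *atp12*, whose product binds the alpha subunit there, had -0.36 (SE 0.10, adjusted p = 0.0204). *atp12* was thus lower while *atp1* was higher. *atp10*, a factor for the FO part, was at -0.37 (adjusted p = 0.0982) and did not pass. *cyt2*, the lyase that attaches heme to cytochrome c1, fell with -0.35 (SE 0.10, adjusted p = 0.0301), while its substrate gene *cyt1* did not pass. *rcf1*, a supercomplex factor, had normalized counts of 957, 885 and 913 in the wild-type and 765, 609 and 677 in the *spx1*Δ libraries and a log2 fold change of -0.42 (SE 0.10, adjusted p = 0.0152). Its relative *rcf2* had 7957, 8346 and 8553 in the wild-type and 7932, 10899.6 and 10053 in the *spx1*Δ libraries, where *spx1*Δ replicate 1 lay just below the wild-type values and replicates 2 and 3 above them, and a log2 fold change of 0.22 (SE 0.12, adjusted p = 0.157).

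The remaining complex IV factors did not pass. *cox14* had normalized counts of 1073, 1047 and 1134 in the wild-type and 1047, 1328 and 1307 in the *spx1*Δ libraries, with *spx1*Δ replicate 1 inside the wild-type range, and a log2 fold change of 0.18 (SE 0.11, adjusted p = 0.19). *coa5* had 556, 523 and 539 in the wild-type and 614, 557 and 587 in the *spx1*Δ libraries and a log2 fold change of 0.12 (SE 0.08, adjusted p = 0.235), without overlap. *coa2* and *coa6* were at -0.25 (adjusted p = 0.127) and -0.18 (adjusted p = 0.0712), and *shy1*, of the Surf1 family, at -0.06 with a 95% interval of -0.24 to 0.12. SPBC8D2.12c, annotated as a translational activator of the mitochondrial *cox1* mRNA, was at -0.46 (SE 0.18, adjusted p = 0.0657) and was called lower by DESeq2 (adjusted p = 0.0371). *cox1101* had normalized counts of 122, 126 and 140.0 in the wild-type and 145, 148 and 127 in the *spx1*Δ libraries, which overlapped, and *cox1102* likewise did not pass. At these counts their 95% intervals were wide, -0.23 to 0.46 and -0.48 to 0.30. Without 1 library, *rcf1* and *atp12* passed in 3 of 6 fits, *pet117* and *atp11* in 2, and *cox17* and *cyt2* only without *spx1*Δ replicate 1, when 10 factors were lower and 3 higher. Without wild-type replicates 1, 2 and 3 the lower factors numbered 0, 2 and 0, and without *spx1*Δ replicates 2 and 3 they numbered 4 and 0.

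Some genes that serve the chain from outside it had larger changes than any subunit, among 53 genes listed by common name. These lists too were drawn up with earlier results known, so their counts are descriptions. The 12 genes of ubiquinone synthesis, which make the carrier that feeds complex III, had 10 lower, 0 higher and 2 not passed, with a median log2 fold change of -0.58. The share lower was 83.3%, against 30.2% of protein-coding genes. *abc1*, a kinase-like protein of that pathway known as COQ8 in budding yeast, was the only gene of the 49 members and these 53 past 2-fold. Its normalized counts were 1733, 1710.2 and 1848 in wild-type replicates 1 to 3 and 816, 375 and 433 in *spx1*Δ replicates 1 to 3. The strains did not overlap, and the log2 fold change was -1.70 (SE 0.29, adjusted p = 0.00605). The methyltransferase gene *coq3* was at -0.92 (SE 0.18, adjusted p = 0.00885) and *coq4*, which the same pathway needs, at -0.72 (SE 0.16, adjusted p = 0.0121). Of 7 genes of heme synthesis, the cofactor of both cytochrome complexes, 4 fell, 1 rose and 2 did not pass (median -0.54). The shares were 57.1% lower and 14.3% higher, against 30.2% and 21.2% of protein-coding genes. *hem12*, uroporphyrinogen decarboxylase, was at -0.77 (SE 0.15, adjusted p = 0.00892) and *hem14*, protoporphyrinogen oxidase, at -0.73 (SE 0.09, adjusted p = 0.00356), while *hem15*, ferrochelatase, which inserts the iron, rose at 0.86 (SE 0.25, adjusted p = 0.0275). The rise of *hem15* passed in 1 of the 6 fits with 1 library left out, that without *spx1*Δ replicate 1, while *abc1*, *coq3*, *hem12* and *hem14* passed in all 6 and *coq4* in 5.

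Among the genes that bring electrons to complexes III and IV, 3 of 6 fell, 1 rose and 2 did not pass (median -0.22). Of protein-coding genes 30.2% were called lower and 21.2% higher, and with only 6 genes these counts are no result about the list. *sdh1*, the flavoprotein of succinate dehydrogenase, was at -0.35 (SE 0.09, adjusted p = 0.0175), and *gut2*, the mitochondrial glycerol-3-phosphate dehydrogenase, at -0.70 (SE 0.20, adjusted p = 0.025). *nde1*, an external NADH dehydrogenase, rose, at 0.47 (SE 0.15, adjusted p = 0.0352). With 1 library left out *sdh1* passed in 2 of 6 fits, and *gut2* and *nde1* only without *spx1*Δ replicate 1, at adjusted p 1.07e-04 to 0.0912 and 4.10e-06 to 0.112 over the 6 fits. *cyc1*, cytochrome c itself, did not pass, at -0.11 with a 95% interval of -0.32 to 0.09. *anc1*, the carrier that exchanges ATP for ADP across the inner membrane, fell at -0.54 (SE 0.16, adjusted p = 0.029), with normalized counts of 19617, 20252 and 19217 in the wild-type and 17217, 11310.0 and 11984 in the *spx1*Δ libraries, and passed without *spx1*Δ replicate 1 but in none of the other 5 such fits (adjusted p 1.24e-06 to 0.104). None of the 4 genes for the CCAAT-binding factor, a regulator of respiratory genes in yeasts, passed in edgeR (median 0.22), with 2 of 4 higher at an unadjusted p under 0.05 (against 24.7% of protein-coding genes), 1 called higher by DESeq2 and 0 by limma-voom.

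The 9 genes for pentatricopeptide repeat proteins, which bind mitochondrial RNAs, were split. Of these 4 rose, 1 fell and 4 did not pass (median 0.14), with *ppr3* just short of 2-fold at 0.996 (SE 0.18, adjusted p = 0.00743), *ppr5* at 0.85 (SE 0.10, adjusted p = 0.00343) and *ppr2* at -0.95 (SE 0.17, adjusted p = 0.00778). The share higher was 44.4%, against 21.2% of protein-coding genes, and the share lower 11.1%, against 30.2%. Finally, 14 genes carry names of complexes III to V although their product text lacks the words used for the members, among them *qcr1*, a core protein of complex III. Of these 6 fell, 2 rose and 6 did not pass (median -0.15). The shares were 42.9% lower and 14.3% higher, against 30.2% and 21.2% of protein-coding genes. *atp23*, a protease and chaperone of the ATP synthase in budding yeast, was at -0.84 (SE 0.18, adjusted p = 0.012), *cbp6*, which serves cytochrome b synthesis there, at -0.69 (SE 0.16, adjusted p = 0.0136), and *coa1*, a complex IV assembly factor, at -0.61 (SE 0.09, adjusted p = 0.00489). With 1 library left out *coa1* passed in all 6 fits, *atp23* in 4 and *cbp6* in 3, and the 3 named pentatricopeptide repeat genes in all 6. *qcr1* did not pass, at 0.06 with a 95% interval of -0.09 to 0.20.

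**Figure D4:**
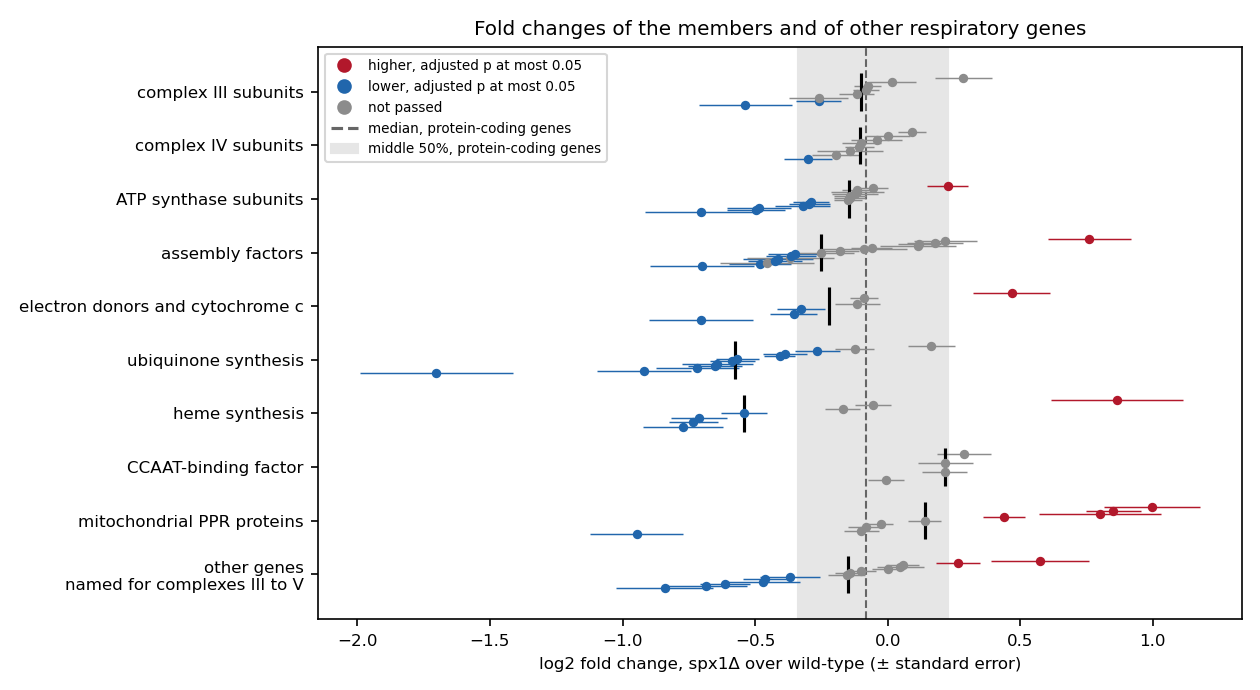
Log2 fold change of *spx1*Δ over wild type for each tested gene of the 4 member classes and the 6 lists of other respiratory genes with more than 1 gene, with its standard error, coloured by the edgeR call. Black bars are medians, the dashed line the median of protein-coding genes and the grey band their middle 50%. The subunits of complexes III and IV sit around medians of -0.10 and -0.10, and ubiquinone synthesis around -0.58.

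Antisense RNAs named after members were measured in the same libraries. At the *atp18* locus the antisense RNA (SPNCRNA.708) had raw counts of 275, 210 and 307 in the wild-type and 587, 925 and 845 in the *spx1*Δ libraries. It rose by 0.84 (SE 0.22, adjusted p = 0.0192) on the log2 scale while *atp18* fell by 0.50, and in both cases the strains did not overlap. With 1 library left out this rise passed in 2 of 6 fits, with an adjusted p of up to 0.0716. The *qcr10* antisense RNA (SPNCRNA.1558) rose from few reads, 11, 2 and 5 against 42, 64 and 28, by 2.15 (SE 0.52, adjusted p = 0.0157), while *qcr10* did not pass. That rise passed in 4 of the 6 fits (adjusted p up to 0.0684). The *pet117* antisense RNA did not pass, at 0.79 (SE 0.34, adjusted p = 0.0851), and those of *atp3* and *cox1101* had too few reads to be tested. Of all 6127 genes tested 27.6% were called higher, against 21.2% of the 4986 that code for protein. The share higher was thus larger among genes that do not code for protein, and these antisense rises are not particular to the members. The libraries were made with a strand-specific kit, but the sources used here do not say whether the counting used the strand. Exons of 41 of the 49 members overlap another annotated gene on the opposite strand in the later RefSeq annotation, and exons of 4 (*rcf2*, *qcr8*, *cox5* and *qcr2*) overlap one on the same strand. For *atp18*, 100% of the exon bases lie under its antisense RNA there. Both had counts of their own, with 716, 576 and 703 raw counts of *atp18* in the wild-type libraries. For genes with an overlap, how reads of shared bases were counted is not stated, and their part in the result was not tested.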

How the data were processed

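Counts of 6 RNA-seq libraries were analysed, 3 wild-type and 3 *spx1*Δ. The authors aligned paired reads to build ASM294v2 with HISAT2 2.1.0, handled alignments with SAMtools and counted reads over PomBase exons with HTSeq 0.10.0, and the deposited table holds these whole-number counts per gene. The sources used here give no version of SAMtools or DESeq2, no strand setting and no rule for reads with several alignments. The series' design text states that the wild-type libraries were cultured at the same time, sequenced in the same run and deposited earlier. The authors' DESeq2 table, which gives mean levels, fold changes, standard errors, statistics and p-values of their own, served only for names and product texts.

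The count table has 6987 rows. A repeated row with 0 counts was dropped. After TMM scaling and the filterByExpr filter, strains were tested with glmQLFit and glmQLFTest (edgeR 4.0.16 in R 4.3.3) with strain as the only term. Benjamini-Hochberg adjustment ran over all 6127 genes kept, of which 4986 are protein-coding. The threshold was an adjusted p of 0.05, and all adjusted p-values are from this test unless another tool is named. The common biological coefficient of variation was 0.149. The standard error is the absolute log2 fold change over the square root of F. Levels per length used coding and exon lengths from the RefSeq annotation of a later build (ASM294v3), matched by systematic ID for all 49 members. Its coordinates served only to find exons that overlap another gene. Replicates are labelled as separate experiments. The step was also run on simulated counts, and the outcome of that run is not given here. Alternatives were DESeq2 size factors, library size alone, only protein-coding genes, no filter, DESeq2 1.42.0, limma-voom (limma 3.58.1), a replicate block and each library left out. Of the names listed for the other respiratory genes, 6 were left out because no ID or another product matched.

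The genes given with values in every library were the members of each class with the largest called changes (up to 4), the most abundant per coding length and those opposite to their class median. From the other lists up to 3 genes with the largest called changes are named, of which *abc1* and *anc1* are given in every library, and *cyc1* and *qcr1* were added for their roles with their values known. The remaining members are given more briefly. A search of promoters for the CCAAT motif was not run, since no promoter table was used here. The members and lists were chosen with earlier results of these data known.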

Additional observations from a re-analysis of the deposited data

How the results depend on the processing

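With 1 library left out, the members numbered 1 to 6 higher and 1 to 30 lower, complex III 0 to 1 higher and 0 to 4 lower, complex IV 0 to 1 and 0 to 4, the ATP synthase 0 to 1 and 1 to 12, and the assembly factors 1 to 3 and 0 to 10 (median log2 fold change -0.40 to -0.20). The electron donors numbered 0 to 1 higher and 0 to 4 lower, ubiquinone synthesis 0 to 1 higher, heme synthesis 0 to 1 higher (median -0.62 to -0.47), the CCAAT-binding factor 0 to 2 higher, the pentatricopeptide repeat genes 1 to 2 lower, *anc1* 0 to 1 lower, and the other genes named for the complexes 0 to 2 higher and 2 to 7 lower (median -0.19 to -0.13). Over all genes these fits called 936 to 2268 higher and 555 to 2377 lower. The upper ends of the member, complex and factor counts came without *spx1*Δ replicate 1.

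Scaling on protein-coding genes alone gave 4 higher members (median -0.068), 1 higher and 0 lower in complex III (median -0.023), 1 higher in complex IV and 2 higher for the CCAAT-binding factor, with medians of 0.217 for the pentatricopeptide repeat genes and -0.072 for the other named genes. It turned the sign of uncalled changes near 0, to 0.002 for *qcr2*, 0.034 for *cox8*, 0.021 for *atp19* and 0.015 for *shy1*. Library size alone gave 0.007 for *cox8*, 2 higher for the CCAAT-binding factor and a median of -0.10 for the other named genes. Without the filter, 1 member was higher (0 in the ATP synthase) and *cox6* was at -0.008. DESeq2 called 1 complex III gene and 1 CCAAT-binding factor gene higher, and limma-voom 0 heme gene and 1 other named gene. With 1 library left out, *qcr10* ran from -0.060 to 0.068, *cox6* from -0.061 to 0.066 and *cox8* from -0.098 to 0.021. The ratio of highest to lowest member level without a length was 5.60 in complex III, 6.05 in complex IV, 43.0 in the ATP synthase and 64.1 among the factors. Per exon length, an alternative chosen after seeing the data, it was 8.77 in the ATP synthase and 58.0 among the factors. Within each of these 2 scalings, protein-coding genes alone and library size alone, genes moved up by similar amounts. *atp2* went from -0.144 to -0.068 and -0.096, and *cox16* from 0.761 to 0.842 and 0.814. The cause of the shifts in this paragraph was not tested.

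Same-numbered replicates deviated together with correlations of 0.15, 0.03 and 0.07 across genes, so the numbers were not taken to pair the samples. With a replicate block, 1 member was higher and 14 lower, with 1 lower in complex III, 0 higher in the ATP synthase and 0 higher among the other named genes. Of all single-gene values under an alternative, 676 kept direction and side of the threshold, 104 lost the call, 26 gained a call and 13 changed sign.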
